A study of Mus musculus with 16 samples.

Results

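Sphingomyelin and ceramide turnover was followed through the mRNAs of 10 enzymes, Sptlc1, Sptlc2, Sgms1, Sgms2, Smpd1, Smpd2, Smpd3, Smpd4, Asah1 and Ugcg, chosen by symbol from the 36930 entries of the table of normalized reads. All 10 were among the 21183 genes that passed the filter on low values, and each had a value in all 16 pups. Sphingomyelin is a major lipid of the outer leaflet of neuronal membranes and of myelin. Ceramide, its backbone, is built from serine and palmitoyl-CoA or set free from sphingomyelin by sphingomyelinases, and it is turned into sphingomyelin by sphingomyelin synthases, into glucosylceramide by Ugcg, or broken down to sphingosine by ceramidases. Sphingomyelin and ceramide levels in brain tissue therefore depend on several enzymes working in opposite directions, in the endoplasmic reticulum, the Golgi, the plasma membrane and the lysosome.

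RNAseq was done with cortices of 16 C57BL6 pups aged 7 days, 8 Avil-ChR2 and 8 ChR2-flfl. Both genotypes carry the floxed channelrhodopsin-2 and tdTomato fusion in the Rosa26 locus, and both were exposed to blue light for 1 h per day from P1 to P5. Avil-ChR2 pups also carry Cre under the advillin promoter, which the methods of the study describe as active mainly in peripheral non-peptidergic nociceptors in the first week of life, whereas ChR2-flfl pups are their Cre-negative litter mates and do not express the channel. The litter of a pup is not in the labels. Pup numbers form the runs 26 to 33 and 35 to 42, and either run holds 4 Avil-ChR2 and 4 ChR2-flfl pups.

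Normalized reads are CPM, gene counts that the authors scaled to a common library size with TMM factors, 1 value per pup. Reads worked out from the step of the values numbered 30549126 in ChR2-flfl replicate 3 and between 47791532 and 48711134 in the other 15 pups. Avil itself was at 0.825 to 1.46 CPM in ChR2-flfl and at 37.3 to 46.4 CPM in Avil-ChR2 pups, so that its mRNA was higher in the cortex of each Avil-ChR2 pup than in any ChR2-flfl pup, although the advillin promoter is described as mainly peripheral at this age. Ddx3y, a Y-linked gene, was at 50.7 to 73.4 CPM in 8 pups and at 1.71 to 2.57 CPM in the other 8, and 1 pup, Avil-ChR2 replicate 4, was labelled female but had 54.7 CPM. Xist had a value in only 2 of the 16 pups and was not used. Markers of cortical neurons, astrocytes, oligodendrocyte lineage cells, microglia and endothelial cells were all present, and the summed CPM of the 6 neuronal markers was 2464 to 2858 in ChR2-flfl and 2655 to 2851 in Avil-ChR2 pups. In whole cortex, fewer cells of a type and less RNA per cell cannot be told apart.

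The comparison of Avil-ChR2 with ChR2-flfl pups asked if mRNA levels of these enzymes in the cortex at P7 differ between genotypes after daily blue light. Pups of both genotypes were exposed to light, and there was no Avil-ChR2 group without light. Cre, the channel and activation of nociceptors by light therefore differ together between the groups and cannot be told apart. An effect of nociceptor activation alone was not tested. For none of the 10 enzymes was the difference between genotypes larger than the spread between pups, and for 9 of them the 95% intervals left room only for changes between -7.63% and 8.96%. By limma with Benjamini-Hochberg adjustment over all 21183 genes, 0 of 10 enzymes had an adjusted p under 0.05, against 0.00944% of all genes, and 0 of 10 had an unadjusted p under 0.05, against 5.41% of all genes. The same counts of 0 were found with voom weights on the recovered reads. The ranges of both genotypes overlapped for each of the 10 enzymes, whereas 0.0283% of all genes had ranges without overlap. Mean log2 differences, always given as Avil-ChR2 minus ChR2-flfl, were positive for 4 enzymes and negative for 6, and their median was -0.0081 as compared with 0.0020 over all genes. The median size of the difference regardless of its sign was 0.014 for the enzymes and 0.051 for all genes.

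**Figure D1:**
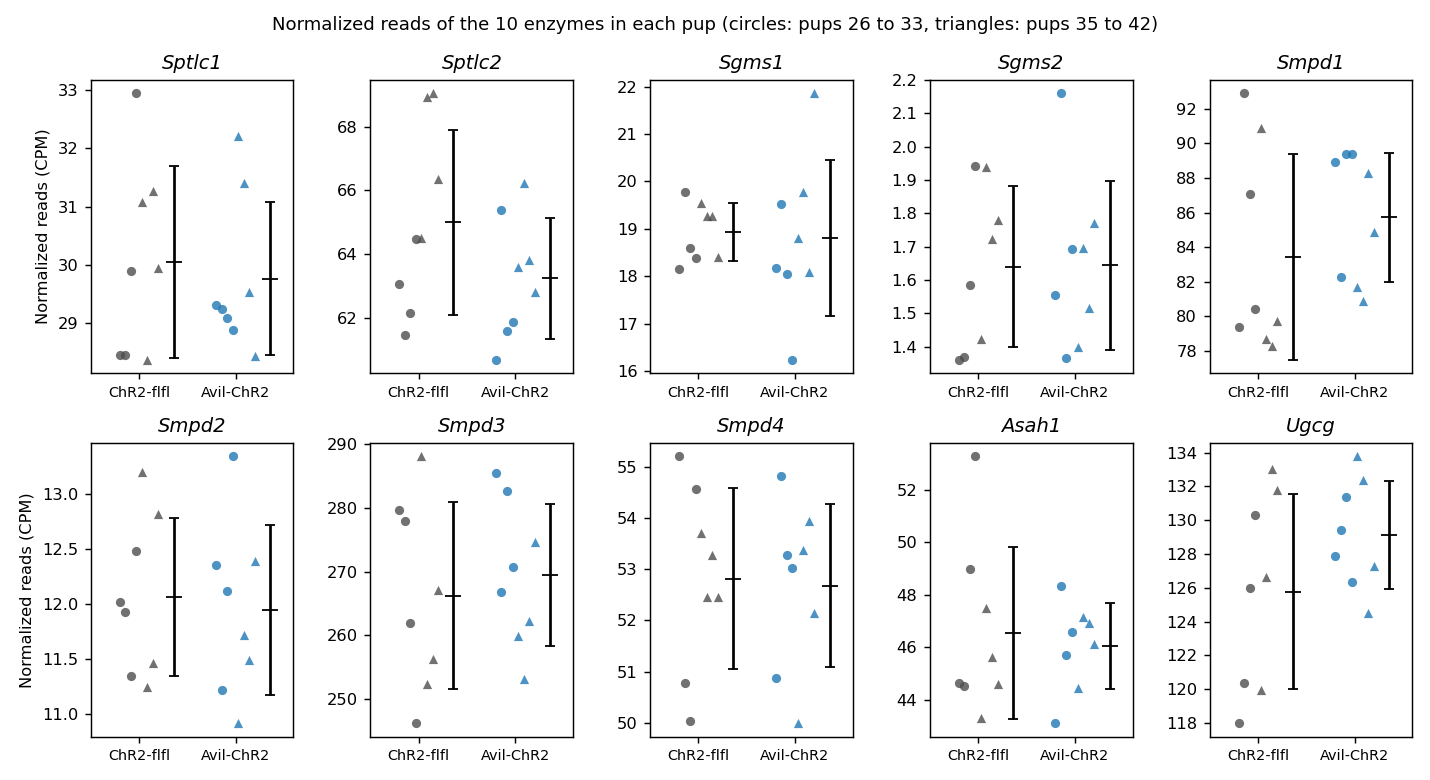
Normalized reads (CPM) of the 10 enzymes in each of the 16 pups, with 1 panel and 1 scale per gene that does not start at 0; circles are pups 26 to 33, triangles pups 35 to 42, and the bars show the mean and SD of 8 pups. The points of both genotypes overlap in each of the 10 panels.

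De novo synthesis starts with serine palmitoyltransferase, a complex of Sptlc1 and a catalytic partner such as Sptlc2. Sptlc1 (chr13:53332748-53377417, minus strand, GRCm38) ranged from 28.4 to 33.0 CPM in ChR2-flfl, with a median of 29.9, and from 28.4 to 32.2 CPM in Avil-ChR2, with a median of 29.3. The groups overlapped over nearly the whole range, and 2 of the 8 Avil-ChR2 values exceeded the control mean. The log2 difference was -0.013 (95% interval -0.090 to 0.064, adjusted p = 0.988). Sptlc2 (chr12:87307889-87388230, minus strand) was at 61.5 to 69.1 CPM in ChR2-flfl, with a median of 64.5, and at 60.7 to 66.2 CPM in Avil-ChR2, with a median of 63.2. The 3 highest values were those of ChR2-flfl replicates 6, 7 and 8, at 68.9, 69.1 and 66.4 CPM, and the lowest was 60.7 CPM in Avil-ChR2 replicate 1. Its log2 difference of -0.039 was the most negative of the 10 (95% interval -0.10 to 0.023, adjusted p = 0.945), and it was 0.0025 with the slope of each library on gene span as a covariate. Per kb of transcript, Sptlc2 was at 0.842 ± 0.054 (SD, n = 8) of the Sptlc1 level in ChR2-flfl and at 0.826 ± 0.032 (SD, n = 8) in Avil-ChR2 pups. With the merged exonic length of each gene, these ratios were 0.950 ± 0.061 (SD, n = 8) and 0.932 ± 0.036 (SD, n = 8).

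Sphingomyelin synthases transfer the head group of phosphatidylcholine to ceramide, Sgms1 in the Golgi and Sgms2 mostly at the plasma membrane. Sgms1 (chr19:32122727-32389705, minus strand) was at 18.2 to 19.8 CPM in ChR2-flfl, with a median of 18.9, and at 16.2 to 21.9 CPM in Avil-ChR2, with a median of 18.5. Both the highest and the lowest of the 16 values were those of Avil-ChR2 pups, replicates 8 and 4, and 4 of the 8 Avil-ChR2 pups lay outside of the ChR2-flfl range. The log2 difference was -0.013 (95% interval -0.11 to 0.086, adjusted p = 0.992). Whether the spread itself differed was not tested. Sgms2 (chr3:131318985-131491192, minus strand) was the weakest of the 10, at 1.36 to 1.94 CPM in ChR2-flfl and 1.37 to 2.16 CPM in Avil-ChR2 pups, with medians of 1.65 and 1.62. These values rest on 49 to 105 reads per pup. Its log2 difference was 0.0043 with a 95% interval from -0.23 to 0.24 (adjusted p = 0.9997). The interval thus left room for changes between -14.9% and 18.2%. Per kb, Sgms1 exceeded Sgms2 16.9 ± 2.69-fold (SD, n = 8) in ChR2-flfl and 16.7 ± 2.26-fold (SD, n = 8) in Avil-ChR2 pups. This fold depends on the length taken for the transcripts, and with the merged exonic length it was 6.95 ± 1.10 (SD, n = 8) and 6.85 ± 0.93 (SD, n = 8).

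Sphingomyelinases release ceramide from sphingomyelin, Smpd1 in the lysosome at acidic pH and Smpd2, Smpd3 and Smpd4 at neutral pH. Smpd3, the neutral sphingomyelinase of the brain, was the most abundant of all 10 enzymes. Smpd3 (chr8:106252548-106337988, minus strand) was at 246 to 288 CPM in ChR2-flfl, with a median of 265, and at 253 to 285 CPM in Avil-ChR2, with a median of 269. The Avil-ChR2 range lay within that of ChR2-flfl. The log2 difference was 0.018 (95% interval -0.053 to 0.089, adjusted p = 0.985). Smpd1 (chr7:105554360-105558389, plus strand) was at 78.3 to 92.9 CPM in ChR2-flfl, with a median of 80.1, and at 80.9 to 89.4 CPM in Avil-ChR2, with a median of 86.6. In ChR2-flfl, 5 pups were at 78.3 to 80.4 CPM and the other 3 at 87.1 to 92.9 CPM, and the Avil-ChR2 pups were within these limits. Smpd1 had the largest log2 difference, 0.041 (95% interval -0.041 to 0.12, adjusted p = 0.954), with an SE of 0.040. With the slope of each library on gene span as a covariate, the differences of Smpd1 and Smpd3 turned to -0.034 and -0.030.

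Smpd4 (chr16:17619354-17644830, plus strand) varied least of the 10, with a coefficient of variation of 3.19%, and was at 50.04 to 55.2 CPM in ChR2-flfl and at 49.99 to 54.8 CPM in Avil-ChR2, with medians of 52.9 and 53.2. Its log2 difference was -0.0035 (95% interval -0.061 to 0.054, adjusted p = 0.995). Smpd2 (chr10:41487172-41490340, minus strand) was at 11.2 to 13.2 CPM in ChR2-flfl and at 10.9 to 13.3 CPM in Avil-ChR2, with medians of 11.97 and 11.9. Its log2 difference was -0.015 (95% interval -0.11 to 0.085, adjusted p = 0.992). Thus neither acid nor neutral sphingomyelinase mRNA differed beyond the spread between pups.

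Ceramide leaves the cycle through Asah1, the lysosomal acid ceramidase, and through Ugcg, which adds glucose to ceramide as the first step of ganglioside synthesis. Asah1 (chr8:41340643-41374697, minus strand) was at 43.3 to 53.3 CPM in ChR2-flfl, with a median of 45.1, and at 43.1 to 48.4 CPM in Avil-ChR2, with a median of 46.3. The 2 highest values were those of ChR2-flfl replicates 4 and 3, at 53.3 and 49.0 CPM. The log2 difference was -0.014 (95% interval -0.094 to 0.067, adjusted p = 0.988). Ugcg (chr4:59189204-59222833, plus strand) was at 118 to 133 CPM in ChR2-flfl, with a median of 126, and at 125 to 134 CPM in Avil-ChR2, with a median of 129. The 3 lowest values, 118 to 120 CPM, were those of ChR2-flfl replicates 1, 5 and 2, and 7 of the 8 Avil-ChR2 values exceeded the control mean. Ugcg had the smallest unadjusted p of the 10, 0.183, with a log2 difference of 0.039 (95% interval -0.020 to 0.098) and an adjusted p of 0.945. With the gene span slope as a covariate its difference was 0.070 with an unadjusted p of 0.0209 (adjusted p = 0.887), and with the GC slope, a covariate chosen after seeing the data, it was 0.056 with an unadjusted p of 0.0115 (adjusted p = 0.726).

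**Figure D2:**
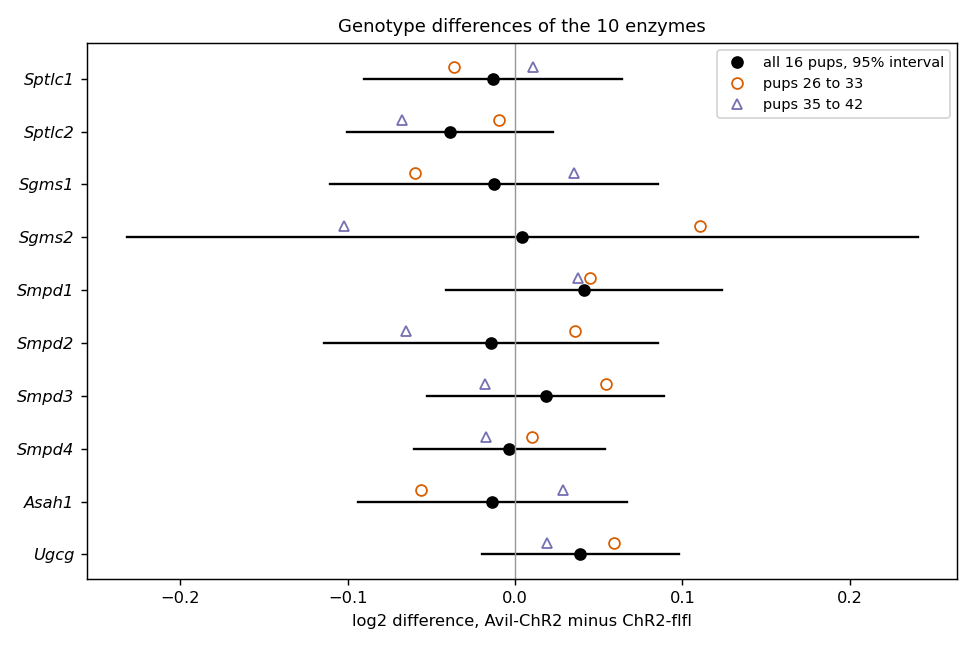
Log2 difference of each enzyme, Avil-ChR2 minus ChR2-flfl; filled points and bars are the limma estimate over 16 pups with its 95% interval, open circles the estimate in pups 26 to 33, and open triangles that in pups 35 to 42. All 10 intervals include 0, and Sgms2 has the widest, from -0.23 to 0.24.

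Differences within each run of pup numbers, with 4 pups per genotype, had the same sign in both runs for 3 of 10 enzymes, Smpd1, Ugcg and Sptlc2. Smpd1 was at 0.045 in the earlier and 0.037 in the later run, Ugcg at 0.059 and 0.019, and Sptlc2 at -0.0099 and -0.068. The other 7 changed sign between runs, and Sgms2 did so most, from 0.11 to -0.10. A genotype by run interaction was found for 0 of 10 enzymes at an adjusted p under 0.05 in limma, with 0% of all genes, and for 0 of 10 at an unadjusted p under 0.05, with 3.04% of all genes. Runs compared directly, as pups 35 to 42 minus pups 26 to 33 with genotype as a covariate, differed for 0 of 10 enzymes at an adjusted p under 0.05, against 0.123% of all genes, and for 1 of 10 at an unadjusted p under 0.05, against 12.5% of all genes. The 1 enzyme was Sptlc2, with 62.6 ± 1.61 CPM (SD, n = 8) in the earlier and 65.7 ± 2.39 CPM (SD, n = 8) in the later run. Its log2 difference between runs was 0.069 (95% interval 0.015 to 0.12, adjusted p = 0.258). Sgms1 had a larger difference, 0.078, with a wider interval from -0.015 to 0.17. What the runs of numbers stand for is not in the labels.

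Female and male pups, by the sex in the labels, differed for 0 of 10 enzymes at an adjusted p under 0.05 in limma, against 0.0425% of all genes, and for 0 of 10 at an unadjusted p under 0.05, against 4.46% of all genes. Asah1 came nearest, with a log2 difference of 0.071, female minus male (95% interval -0.0056 to 0.15, adjusted p = 0.988). By the labels, 5 Avil-ChR2 pups were female and 3 male, and ChR2-flfl had 4 of each sex. Avil-ChR2 replicate 4, labelled female, is male in the supplementary gene table and by its Ddx3y level. With this pup counted as male, the counts were also 0 of 10, and Asah1 was at 0.064 (95% interval -0.012 to 0.14). A genotype by sex interaction was found for 0 of 10 enzymes at an adjusted p under 0.05, with 0% of all genes, and for 0 of 10 at an unadjusted p under 0.05, with 4.31% of all genes. Intervals of the interaction were wide, from -0.25 to 0.30 over the 9 enzymes other than Sgms2. With Avil-ChR2 replicate 4 counted as male they ran from -0.26 to 0.29.

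The levels of the enzymes relative to each other were compared as CPM per kb of the longest transcript in GENCODE. The order was Smpd3, Smpd1, Ugcg, Asah1, Sptlc1, Smpd4, Sptlc2, Sgms1, Smpd2 and Sgms2, with means over 16 pups of 52.0, 35.1, 31.8, 16.7, 11.5, 10.5, 9.56, 4.68, 2.89 and 0.283 CPM per kb. The first exceeded the last 184-fold. Ranges over pups overlapped for 3 pairs of neighbours, Smpd1 with Ugcg, Sptlc1 with Smpd4, and Smpd4 with Sptlc2, and did not overlap for the other 6. For Smpd2, the longest transcript (4150 bases) and the merged exonic length (4468 bases) both exceed the 3169 bases of its gene as deposited. Its level per kb may therefore be too low. Its rank below Sgms1 and the lack of overlap between Sgms1 and Smpd2 depend on this length. Smpd3 exceeded Smpd1 1.499 ± 0.085-fold (SD, n = 8) in ChR2-flfl and 1.47 ± 0.046-fold (SD, n = 8) in Avil-ChR2 pups. Smpd1 mRNA exceeded Asah1 mRNA 2.07 ± 0.23-fold (SD, n = 8) in ChR2-flfl and 2.14 ± 0.14-fold (SD, n = 8) in Avil-ChR2 pups. Enzyme activity was not measured. The transcripts differ in GC content, 55.7% for Smpd1 and 43.5% for Asah1, and the part of base composition in this ratio was not tested. With the merged exonic length in place of the longest transcript, 4 enzymes changed rank, Smpd4 with Sptlc2 and Sgms1 with Smpd2. With that length Smpd3 exceeded Smpd1 2.04 ± 0.12-fold (SD, n = 8) in ChR2-flfl and 2.01 ± 0.063-fold (SD, n = 8) in Avil-ChR2 pups. Smpd1 then exceeded Asah1 1.83 ± 0.20-fold (SD, n = 8) and 1.89 ± 0.12-fold (SD, n = 8), in the same order of genotypes. In rank among all 21183 genes by mean log2 CPM, without regard to length, Smpd3 was above 96.9% and Sgms2 above 32.8% of genes.

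**Figure D3:**
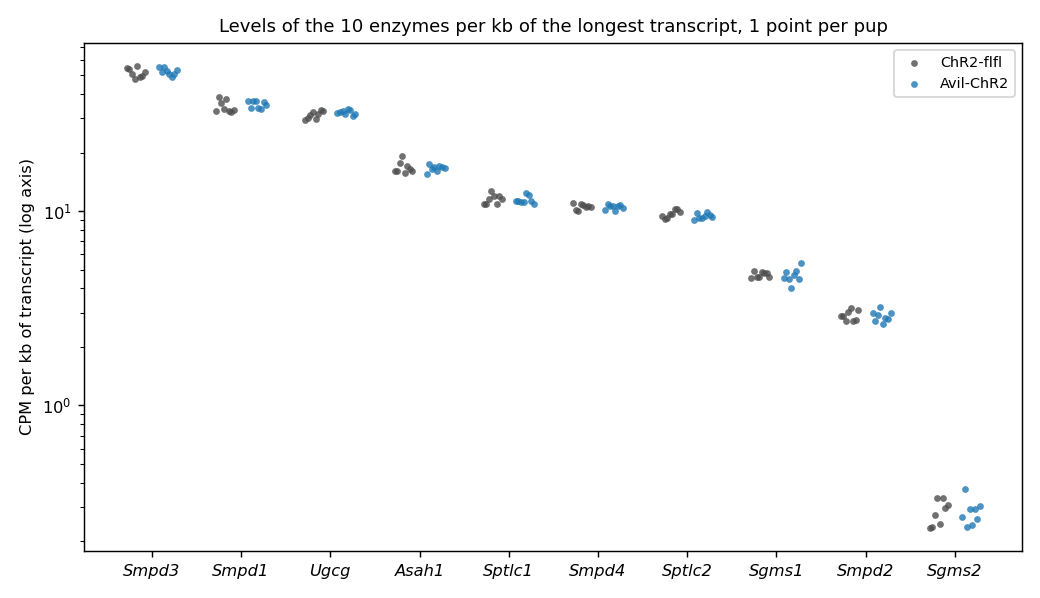
CPM per kb of the longest transcript of each enzyme on a log axis, ordered by the mean over 16 pups; each point is 1 pup, grey for ChR2-flfl and blue for Avil-ChR2. Smpd3 is at the top with a mean of 52.0 and Sgms2 at the bottom with 0.283 CPM per kb, and both genotypes share the order.

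The spread between pups was set against counting error, and its excess differed between the enzymes. The SD of log2 values within genotypes was 0.070 for Smpd3, 5.44 times the SD given by its read counts, and 0.084 for Smpd1, 3.65 times. For Sgms2 it was 0.21, 1.28 times the counting SD, so that most of its spread was of the size of counting error. Smpd2 and Smpd4 were also low, at 1.46 and 1.59 times. Whether these small excesses go beyond sampling was not tested. Coefficients of variation of the 9 enzymes other than Sgms2 were 3.19% to 6.57%, and that of Sgms2 was 15.1%.

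Some pairs of enzymes varied together or in opposite directions from pup to pup. After subtracting the mean of each genotype, Pearson's r over the 16 pups was 0.65 for Smpd1 with Smpd3, and -0.73 for Smpd1 with Sptlc2 (Spearman's rho 0.60 and -0.76). Smpd3 varied opposite to Asah1 (r = -0.72), Ugcg (r = -0.63) and Sptlc2 (r = -0.62), whereas Ugcg varied with Sptlc1 (r = 0.58) and Sptlc2 (r = 0.55). Within the runs, Smpd1 and Sptlc2 were at r = -0.72 in the earlier and -0.71 in the later. Smpd1 with Ugcg, at r = -0.59 over all pups, was at -0.16 and -0.88 in the runs. Of the 45 pairs, 21 had a positive and 24 a negative r, and the median was -0.025. Sgms1 was between -0.28 and 0.26 with each of the other enzymes. The share of all gene pairs with an r of these sizes was not computed. Correlations are descriptions, since all values of a pup come from the same library and share its depth and base composition.

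**Figure D4:**
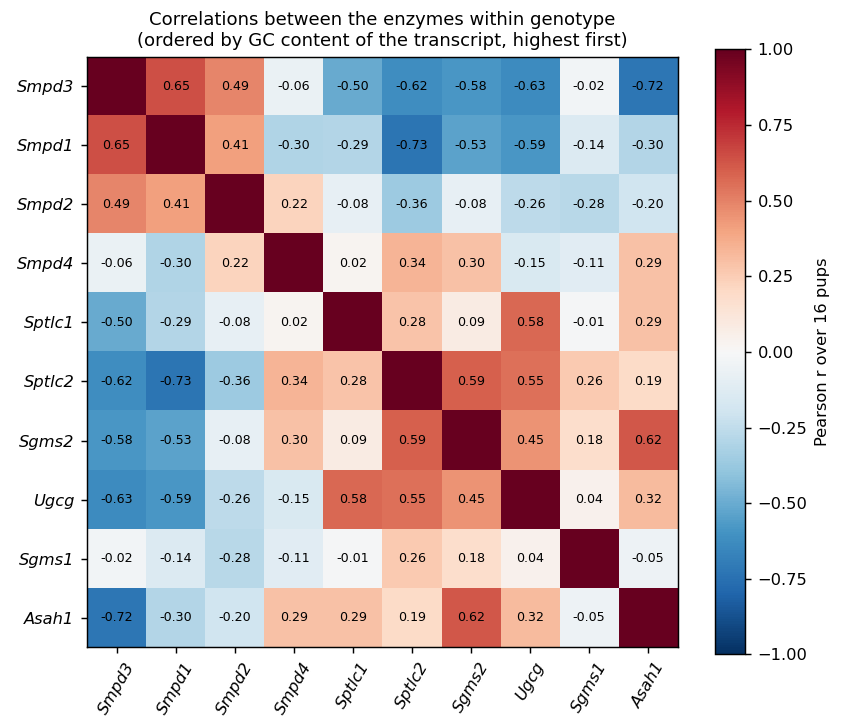
Pearson's r between the enzymes over 16 pups after subtracting the mean of each genotype, with the enzymes ordered by the GC content of their longest transcript, highest first. Smpd3, Smpd1 and Smpd2, the 3 enzymes of highest GC content, are positively correlated with each other at 0.41 to 0.65 and negatively with Sptlc2, Sgms2, Ugcg and Asah1.

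The correlated enzymes also differed in base composition. The longest transcripts of Smpd3, Smpd1 and Smpd2 had a GC content of 55.8%, 55.7% and 54.6%, Smpd4 of 50.8%, and the other 6 enzymes of 43.5% to 47.7%, as compared with a median of 49.6% over 13844 genes whose log2 values averaged 0 or more. The slope of log2 values on GC content over these genes, a property of each library, ranged from -0.18 to 0.013 per 10 percentage points in ChR2-flfl and from -0.17 to -0.0021 in Avil-ChR2 pups. Libraries with a slope nearer to 0 had more Smpd3 (r = 0.90, Spearman's rho 0.92) and Smpd1 (r = 0.79, rho 0.74), and less Ugcg (r = -0.82, rho -0.83) and Sptlc2 (r = -0.72, rho -0.71). Without the 2 pups farthest from the median slope, these r were 0.91, 0.75, -0.79 and -0.57. For Smpd3 the correlation was 0.93 in the earlier and 0.88 in the later run, and for Ugcg -0.74 and -0.84. Not every enzyme of low GC content went with the slope. Sgms1, at 43.5% GC, was at r = -0.097, and at 0.057 without the 2 farthest pups. Smpd4 was at r = -0.056. Over the 10 enzymes, GC content and the correlation with the slope were related with r = 0.90. The slope is itself computed from log2 values and GC content over genes that include these enzymes. Genes of high GC content therefore tend to rise with the GC slope by its construction. The same relation over all genes was not computed. The slope on the genomic span of genes, which itself correlated with the GC slope at r = -0.82, showed the opposite picture, with r = -0.88 for Smpd1 and 0.74 for Sptlc2. The part of base composition in the covariation of the enzymes was not tested.

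**Figure D5:**
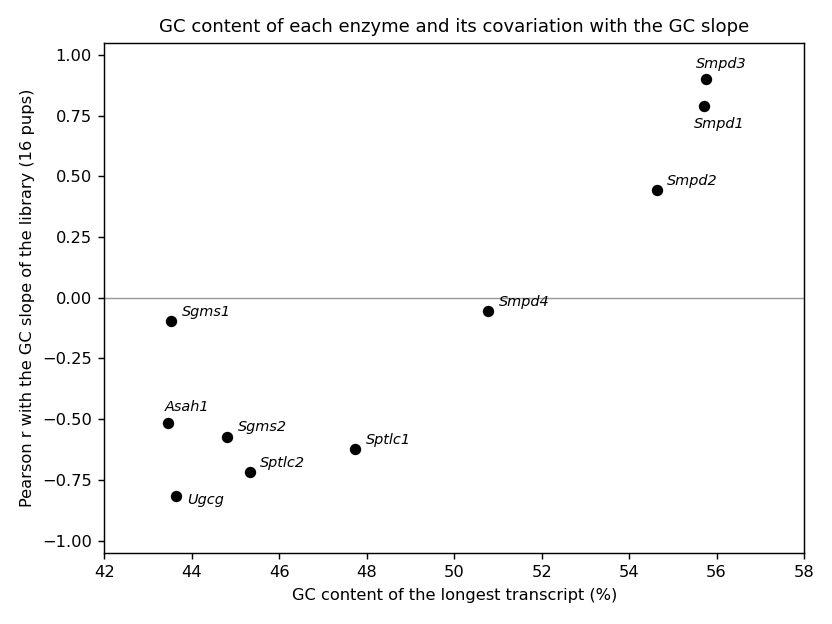
GC content of the longest transcript of each enzyme against the Pearson correlation of its log2 values with the GC slope of the library over 16 pups. The 3 enzymes above 54% lie at positive r, up to 0.90 for Smpd3. Of the others, Ugcg is lowest at -0.82, whereas Sgms1 at -0.097 and Smpd4 at -0.056 lie near 0. Part of this relation is built in, because the slope is computed on GC content.

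Summed markers of several cell types moved with some of the enzymes as well. Of 80 pairs of an enzyme and a marker list, 7 had an r above 0.5 or below -0.5 within genotypes. Besides oligodendrocyte lineage markers, these were Smpd1 with cortical projection neurons (r = -0.62), Sptlc2 with erythroid cells (r = -0.57), Sgms2 with choroid plexus (r = 0.57) and Sgms1 with endothelial cells (r = 0.50). The summed CPM of the 8 oligodendrocyte lineage markers was 263 to 344 in ChR2-flfl and 262 to 336 in Avil-ChR2 pups, and its correlation within genotypes was 0.64 with Smpd1, -0.71 with Sptlc2 and -0.54 with Sptlc1. Within pups 35 to 42 the r of Smpd1 and Sptlc2 were 0.20 and -0.028, and within pups 26 to 33 they were 0.88 and -0.72. The share of all genes with an r of this size to the same marker sums was not computed, so the 7 pairs are a description. The part of these cell types in the values of the enzymes was not tested.

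Promoters are shown for Smpd1, Sptlc2 and Ugcg, because Smpd1 varied opposite to the other pair and because these genes each have a single start in the RefSeq table, which held 8 of the 10 enzymes. Each window runs from 250 bases before to 50 bases after the start in RefSeq (GRCm38.p6), 5′ to 3′ on the strand of the gene. Smpd1 is at chr7:105554110-105554409 (plus strand), Sptlc2 at chr12:87388306-87388605 (minus strand) and Ugcg at chr4:59189300-59189599 (plus strand). The RefSeq start is that of the deposited table for Smpd1, whereas for Ugcg it lies 346 bases downstream of the start of the table, so that the window is within the gene as given there, and for Sptlc2 it lies 125 bases upstream. Capitals mark matches to the GC box GGGCGG and the CCAAT box CCAAT on either strand (CCGCCC and ATTGG in reverse).
Smpd1: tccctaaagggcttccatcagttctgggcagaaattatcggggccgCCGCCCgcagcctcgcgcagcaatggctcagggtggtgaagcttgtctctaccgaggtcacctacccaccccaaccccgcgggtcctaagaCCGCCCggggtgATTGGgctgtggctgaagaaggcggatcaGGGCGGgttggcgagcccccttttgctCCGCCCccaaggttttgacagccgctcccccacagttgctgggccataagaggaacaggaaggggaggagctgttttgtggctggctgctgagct
Sptlc2: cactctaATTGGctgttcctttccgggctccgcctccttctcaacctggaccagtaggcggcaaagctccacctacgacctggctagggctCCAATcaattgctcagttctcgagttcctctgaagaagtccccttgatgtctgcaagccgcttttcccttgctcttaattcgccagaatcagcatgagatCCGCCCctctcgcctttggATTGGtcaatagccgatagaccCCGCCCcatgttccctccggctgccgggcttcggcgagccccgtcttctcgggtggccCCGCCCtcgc
Ugcg: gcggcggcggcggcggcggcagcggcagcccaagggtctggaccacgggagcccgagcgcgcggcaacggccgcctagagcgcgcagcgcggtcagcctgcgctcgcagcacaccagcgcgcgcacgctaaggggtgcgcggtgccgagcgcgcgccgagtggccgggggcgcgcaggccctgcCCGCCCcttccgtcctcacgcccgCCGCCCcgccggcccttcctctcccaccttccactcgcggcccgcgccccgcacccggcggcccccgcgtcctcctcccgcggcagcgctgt
The Smpd1 window held 4 GC boxes and 1 CCAAT box, the Sptlc2 window 3 of each, and the Ugcg window 2 GC boxes and no CCAAT box. Of 32851 promoters of the same length, 35.7% held a GC box and 37.4% a CCAAT box. The E-box CACGTG, found in 7.15% of promoters, and the TATA box TATAAA, found in 13.6% on either strand, were not in these 3 windows. The GC content of the windows was 63.0% for Smpd1, 59.3% for Sptlc2 and 81.3% for Ugcg, against a median of 52.7% over all promoters. The high GC content of the Ugcg promoter stood in contrast to the 43.6% of its transcript. A match of letters is a description and not a binding site.

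Genes most like each enzyme were sought among 15136 other genes whose log2 values averaged 0 or more, as the highest Pearson's r over 16 pups after subtracting genotype means. Smpd3 was most like Obsl1 (r = 0.97), Ugcg most like Fyttd1 (r = 0.95) and Smpd1 most like Ptges2 (r = 0.94). Asah1 was most like Rsl24d1 (r = 0.89), Sptlc2 most like Usp16 (r = 0.87) and Sptlc1 most like LOC105246946 (r = 0.87). Sgms2 followed with Cpne3 (r = 0.85), Sgms1 with Vgll3 (r = 0.84), Smpd4 with Pomt2 (r = 0.82) and Smpd2 with Emc1 (r = 0.78). These r are the highest of many and carry no test.

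The other genes of the pathway were tested in the same way. Of 55 symbols in 5 lists, 54 were in the table and 52 passed the filter, and by limma 0 of 52 had an adjusted or an unadjusted p under 0.05, against 0.00944% and 5.41% of all genes, with 30 differences above and 22 below 0 and a median of 0.014. With voom weights on the recovered reads, 1 of 52, the ceramide synthase Cers1, had an unadjusted p under 0.05, against 5.71% of all genes. For de novo synthesis, 9 genes were tested, from -0.055 for Sptssa, a small subunit of serine palmitoyltransferase, to 0.20 for Sptlc3, an alternative catalytic subunit at 0 to 0.226 CPM. For relatives of the sphingomyelin enzymes, 6 genes were tested, from -0.035 for Samd8, which makes ceramide phosphoethanolamine, to 0.19 for Smpdl3b. Ceramidases, ceramide kinase and the sphingosine-1-phosphate branch comprised 15 genes, from -0.26 for S1pr4, at 0.062 to 0.352 CPM, to 0.071 for S1pr3, both receptors of sphingosine-1-phosphate. The list of glycosphingolipid genes, not all of them downstream of Ugcg, comprised 16 genes. It ran from -0.12 for St8sia1, the GD3 synthase, to 0.11 for B3galt4, and 12 of the 16 differences were positive. St8sia1 had the smallest unadjusted p of all lists, 0.0521, with 37.8 ± 3.04 CPM (SD, n = 8) in ChR2-flfl and 34.8 ± 3.53 CPM (SD, n = 8) in Avil-ChR2 pups (limma, adjusted p = 0.911).

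Ceramide synthases add the acyl chain that tells ceramide species apart. With all 16 pups the 6 estimates were below 0, from -0.0032 for Cers5 to -2.48 for Cers1, against a median of 0.0020 over all genes. By limma 0 of 6 had an unadjusted p under 0.05, and with voom weights 1 had, Cers1 (unadjusted p = 0.0356, adjusted p = 0.855). The value of Cers1 came from 2 Avil-ChR2 pups, replicates 1 and 2, in which Cers1 had no value, whereas the other 14 pups had 28.3 to 37.4 CPM. In these pups Gdf1, an entry that shares the transcript of Cers1, was at 76.3 and 64.4 CPM as compared with 25.8 to 38.2 CPM in the other 14. The sum of both entries was 54.2 to 76.3 CPM over all 16 pups. Without these 2 pups Cers1 was at 33.1 ± 2.80 CPM (SD, n = 6) in Avil-ChR2, against 32.4 ± 3.15 CPM (SD, n = 8) in ChR2-flfl. The negative sign of Cers1 thus rests on these 2 pups.

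Other entries of the table overlapped 4 of the 10 enzymes, each on the opposite strand, and 3 of these entries had values. 2700046G09Rik, which overlaps Sgms1, was at 0.685 to 1.67 CPM, against 16.2 to 21.9 CPM of Sgms1. Gm33444 at Sptlc2 reached 0.374 CPM and Gm36753 at Sgms2 reached 0.187 CPM, the latter against 1.36 to 2.16 CPM of Sgms2. 4930506A18Rik at Smpd3 had no value in any pup.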

How the data were processed

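The authors prepared stranded mRNA libraries from cortices of 16 pups, aligned reads to mm10 (GRCm38) with SeqMan NGen, counted them per gene in ArrayStar and scaled them with TMM factors of edgeR. The deposited values are CPM with decimal commas and 1 column per pup. Whether counting used the strand is not given in the sources used here. Values were whole multiples of 1 read in each pup: 100% of values of up to 20000 reads were whole within 0.05. Total reads set counting error only, and the libraries carried no molecular identifiers.

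Values were log2 transformed. Missing values and values below -5 were set to -5 (4432 of 338928 values, 0 for the 10 enzymes), and genes above -5 in at least 12 of 16 pups were kept. The genotype test was limma 3.58.1 under R 4.3.3, with lmFit and eBayes (intensity trend), over all 21183 genes with Benjamini-Hochberg adjustment and no covariate. Scripts were tested on simulated data. Groups came from the labels; litters are not labelled, so p-values measure the spread between pups. Sex used the labels or, as an alternative, the supplementary gene table. Transcript lengths and GC content came from the longest GENCODE M21 transcript by symbol, matched for 82.5% of the genes analyzed and for all 10 enzymes. Promoters were taken from RefSeq.

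Enzymes, pathway lists and marker lists were chosen with earlier results of these data known. Apart from these, genes are named by rule: the lowest and highest difference of each pathway list, the gene most correlated with each enzyme, Avil, Ddx3y and Xist. Gdf1 and overlapping entries were named after their values were seen. Marker sums of the 8 lists overlapped between genotypes; cortical projection neuron markers summed to 611 to 703 CPM, astrocytes to 605 to 773, microglia to 45.7 to 74.4, endothelial cells to 116 to 142, choroid plexus to 1.45 to 3.25 and erythroid cells to 227 to 465 over both genotypes. Alternatives were other filters, scalings, a pseudocount of 1, covariates, a replicate block, each run of pup numbers and each pup left out.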

Additional observations from a re-analysis of the deposited data

Results flagged for a closer look

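Of 42 groups of 8 pups examined for a value far from the others (10 enzymes, Avil and the 10 named pathway genes, in both genotypes), 2 held one, and chance gives about 1 in 20. Avil was at 46.4 CPM in Avil-ChR2 replicate 7, above the other Avil-ChR2 pups, and S1pr4 was at 0.352 CPM in ChR2-flfl replicate 8. None of the 10 enzymes was among them.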

How the results depend on the processing

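Over 31 refits of the genotype comparison, no enzyme reached an adjusted p under 0.05; the smallest was 0.713. Enzymes at an unadjusted p under 0.05 numbered 1 instead of 0 with the gene span slope as covariate and 1 with the transcript GC slope as covariate (chosen after seeing the data): Ugcg in both, with log2 differences of 0.070 and 0.056 and adjusted p of 0.887 and 0.726. For all enzymes but Ugcg the difference changed sign in at least 1 refit, also for Smpd1 and Sptlc2, which had the highest and the lowest difference. With the gene span slope as covariate Smpd1 was at -0.034, Smpd3 at -0.030, Smpd4 at 0.012, Asah1 at 0.0053, Sptlc1 at 0.025 and Sptlc2 at 0.0025. With the transcript GC slope Smpd3 was at -0.0064, Asah1 at 0.0022 and Sptlc1 at 0.0042. With the sex of the labels as covariate Sgms2 was at -0.0068. In pups 26 to 33, Smpd2 was at 0.036 and Smpd4 at 0.010; in pups 35 to 42, Sgms1 was at 0.035, Sgms2 at -0.10, Smpd3 at -0.018, Asah1 at 0.029 and Sptlc1 at 0.010. With each pup left out in turn the ranges were -0.054 to 0.041 for Sgms2, -0.044 to 0.017 for Sgms1, -0.038 to 0.0043 for Smpd2, -0.015 to 0.0072 for Smpd4, -0.028 to 0.015 for Asah1 and -0.030 to 0.0062 for Sptlc1. The cause of these changes was not tested. The median difference of the 10 enzymes was between -0.0087 and 0.023 under the settings that kept all pups or 1 run, and between -0.018 and 0.0054 with pups left out.

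Pathway genes at an unadjusted p under 0.05 numbered 0, but 1 without a filter, 2 with quantile normalization, 1 without an intensity trend, 1 with either slope as covariate, 1 with voom, 3 in pups 26 to 33, and 0 to 3 with each pup left out. With the replicate block the pathway count was 2, the count of enzymes stayed at 0 and the median was -0.0081. Same-numbered pups correlated at -0.34 to 0.39. These correlations cannot decide if the numbers pair the pups, and the labels do not say so. The counts of enzymes at an adjusted p under 0.05 for sex, run of pup numbers and genotype by sex were 0 in each of their refits; their unadjusted counts were not refitted. With exonic length, 4 enzymes changed rank. The edgeR test on recovered reads was not run, and voom in limma was run in its place, chosen after seeing the data, as was the genotype by run interaction.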
